A study of Mus musculus with 3 samples.

Results

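The genes described here are Nr0b1, Tfe3, Dusp9, Zfx, Eras, Sox3, Nono and Klf8, 8 of the 1255 protein-coding and long noncoding genes placed on chromosome X. The set is headed X-linked stem cell and transcription factor genes, and its members differ in their roles. The genes were chosen by name, and each was measured over its gene body plus 5 kb on both sides in mm10 coordinates. Chromatin bound by LSD1, the product of Kdm1a, was isolated with an antibody and sequenced, and reads on chromosome X were counted by allele at positions where a variant base was seen. MidK was 1 library of mouse embryonic fibroblasts carrying the vector SeVdp(fKOSMaB), collected at day 20 with 30 nM Shield1. LowK was 1 library of such fibroblasts with the same vector at day 20 without Shield1. MEF was 1 library of mouse embryonic fibroblasts at day 0. The vector is therefore common to MidK and LowK, whereas MEF differs from both in vector and in time, and these cannot be told apart. The labels call the day 20 samples reprogramming cells, so that each can hold cells at different stages. The sources used here do not name the sex of the cells or the strain with the variant base.

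LSD1 is a histone demethylase that removes methyl groups from lysine 4 of histone H3 and acts within corepressor complexes, at enhancers and promoters among other places. In reprogramming, fibroblast genes are shut off and genes of pluripotent cells are switched on by introduced transcription factors. Shield1 is a small molecule that protects fusion proteins with a destabilising domain from degradation. Several of the 8 genes belong to the signalling and transcription network of mouse embryonic stem cells, and all lie on the X chromosome, of which female somatic cells keep a single copy active.

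The lists held 203350 reads at 119257 single-base sites in MidK, 295254 at 186844 in LowK and 883097 at 411952 in MEF. In the windows of the 8 genes there were 471 reads at 294 sites in MidK, 1113 at 631 in LowK and 2583 at 1141 in MEF. Per 10000 listed reads this was 23.2 in MidK, 37.7 in LowK and 29.2 in MEF. Depth at a site was low: the deepest site in the windows had 10 reads in MidK, 9 in LowK and 9 in MEF. Because the listed sites cluster and 1 sequencing read can cover several of them, each value was also computed with 1 site kept per 300 bp. This left 282 reads at 173 sites in MidK, 518 at 302 in LowK and 1103 at 505 in MEF. All intervals given are exact 95% intervals that cover counting error only, and they are too narrow where 1 read was counted at several sites. Without an input library, a read count is not enrichment, and it is no measure of expression. Nor is it plain coverage, since a position without a variant read is not listed and its B6 reads are missing. Read shares thus mix coverage with allele share. Over the whole lists the variant base made up 81.1% of reads in MidK, 90.2% in LowK and 85.8% in MEF. The part of this in the ratios below was not tested. With 1 library per group no difference has a replicate check and no p-value was computed.

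Promoter sequences are shown first, since they are where the allele counts can be set on the gene itself. RefSeq promoters of GRCm38.p6, which cover 250 bases before and 50 after a start, were matched for 6 of the 8 genes, giving 9 promoters, of which 6 held a listed position in at least 1 library. The 4 below carry the allele counts used later. Capitals mark the listed positions with their B6 base, and positions are counted from 1 at the 5′ end.

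Tfe3, chrX:7763693-7763992, plus strand: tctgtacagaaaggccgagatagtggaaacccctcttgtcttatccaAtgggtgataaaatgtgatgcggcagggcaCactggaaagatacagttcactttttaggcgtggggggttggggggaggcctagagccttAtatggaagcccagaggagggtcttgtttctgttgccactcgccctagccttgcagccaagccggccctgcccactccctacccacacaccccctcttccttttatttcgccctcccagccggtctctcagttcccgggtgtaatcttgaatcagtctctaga

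Eras, chrX:7928558-7928857, minus strand: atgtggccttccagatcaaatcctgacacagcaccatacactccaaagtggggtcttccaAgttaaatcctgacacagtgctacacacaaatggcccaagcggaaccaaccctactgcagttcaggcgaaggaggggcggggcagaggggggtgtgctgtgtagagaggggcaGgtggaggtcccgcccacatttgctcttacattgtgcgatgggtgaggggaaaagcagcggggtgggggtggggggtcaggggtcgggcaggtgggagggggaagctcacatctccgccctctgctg

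Zfx, chrX:94123358-94123657, minus strand: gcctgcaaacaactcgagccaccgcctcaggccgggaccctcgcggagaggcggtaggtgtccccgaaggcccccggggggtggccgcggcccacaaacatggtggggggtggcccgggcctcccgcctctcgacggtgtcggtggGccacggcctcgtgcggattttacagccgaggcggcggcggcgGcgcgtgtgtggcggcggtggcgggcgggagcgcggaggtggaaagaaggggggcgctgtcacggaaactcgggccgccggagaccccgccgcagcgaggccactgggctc

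Klf8, chrX:153359363-153359662, plus strand: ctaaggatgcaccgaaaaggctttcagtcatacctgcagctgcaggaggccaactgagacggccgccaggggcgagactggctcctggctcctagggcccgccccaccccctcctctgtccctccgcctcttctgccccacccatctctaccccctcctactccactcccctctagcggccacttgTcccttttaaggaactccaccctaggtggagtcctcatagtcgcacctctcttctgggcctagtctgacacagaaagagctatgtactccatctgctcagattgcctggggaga

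The Zfx promoter printed above was rich in G and C (75.3% of bases), while another Zfx promoter, at chrX:94123718-94124017 and with no listed position, was at 40%. These compare with 60% in the Eras and Klf8 promoters, 54.3% in the Tfe3 promoter and a median of 51% over the 1223 promoters of chromosome X. The printed Zfx promoter was also the one with reads of both alleles in both day 20 libraries. At G190A, MidK had 1 B6 and 3 variant reads and LowK had 3 B6 and 2 variant reads. At G147A, MidK had 2 B6 and 3 variant reads and LowK had 2 variant reads alone. Neither Zfx position was listed in MEF, although MEF was the deepest library. The Klf8 position T187C had 3 B6 and 5 variant reads in LowK and 5 variant reads in MEF, and was not listed in MidK. In the Tfe3 promoter, A48G and C78G had 1 variant read each in LowK and 2 each in MEF, and A138T had 1 B6 and 2 variant reads in MEF. The Eras promoter held single variant reads, at G174C in MidK and at A61C in LowK. A position that is not listed in a library may have had no read or B6 reads alone, and these cannot be told apart in the lists.

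A search of both strands of the 9 promoters covered the motif CACGTG, an E-box of the kind bound by TFE3, the octamer ATGCAAAT, and the sequences GGGCGGGG and GGGTGTGG bound by Sp and Krüppel-like factors. CACGTG was in 0 of the 9 promoters and in 8.59% of the promoters of chromosome X, and ATGCAAAT was in 0 of 9 and in 1.8%. GGGCGGGG was in the Eras promoter printed above and in 16% of the chromosome's promoters. GGGTGTGG was in another Tfe3 promoter, at chrX:7762411-7762710, and in 3.6%. A match says that these letters are in the window, and no match that they are not.

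The first comparison asked which of the 8 genes held a different share of LSD1 reads after 20 days with the vector. For this, reads per 10000 listed reads were divided between libraries and set relative to the median gene of the chromosome. A difference was called when it reached 2-fold, the Poisson intervals did not overlap and at least 30 reads lay in 1 of both libraries. In LowK, Eras, Dusp9, Tfe3 and Sox3 rose over MEF, between 2.16-fold and 3.38-fold, and Nr0b1, Zfx, Klf8 and Nono were not called. The background among all 1079 genes tested was 7.23% called higher and 6.3% called lower, against 4 and 0 of the 8 genes. With Shield1, in MidK, Dusp9 rose over MEF and Nono fell, 1 and 1 of 8, where 9.45% of the 1079 genes were called higher and 9.82% lower. With library totals as the scale, the 8 genes split into 0 higher and 2 lower in MidK over MEF, where all genes split into 4.45% and 21.3%. In LowK over MEF they stayed at 4 and 0, where all genes split into 9.55% and 5.65%. Both comparisons share the MEF library.

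**Figure D1:**
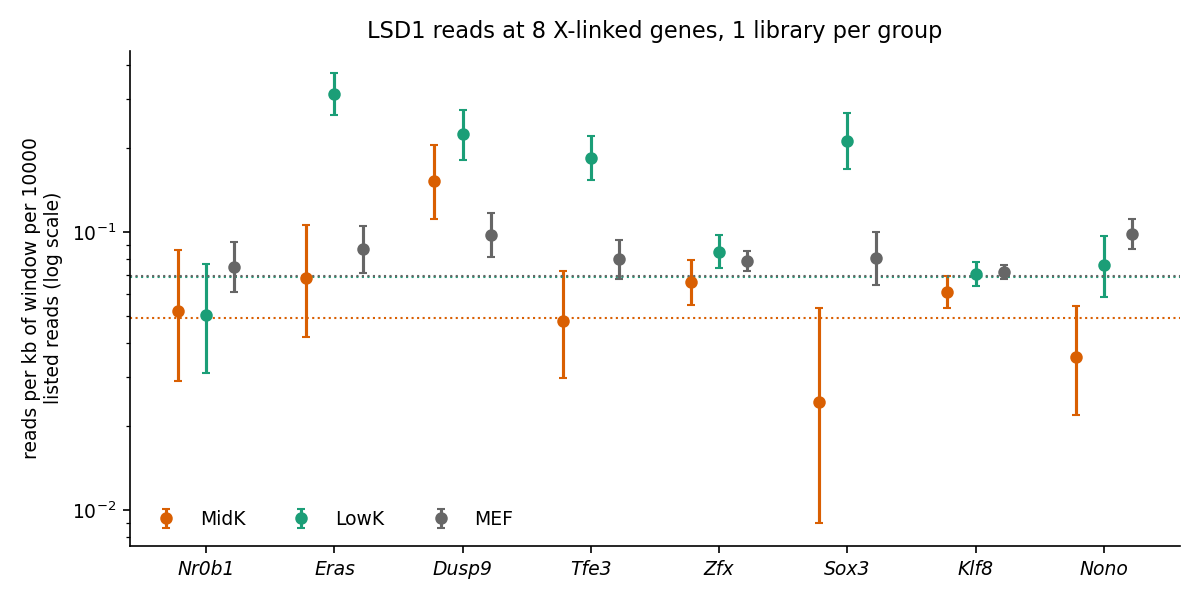
LSD1 reads per kb of window per 10000 listed reads (log scale) at each of the 8 genes in MidK, LowK and MEF, 1 library each. Bars are exact 95% Poisson intervals and dotted lines the median gene of each library, at 0.0491 in MidK, 0.0688 in LowK and 0.0696 in MEF. Eras, Dusp9, Tfe3 and Sox3 stand highest in LowK, between 0.185 and 0.314.

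Among the signalling genes, Eras encodes a Ras-like GTPase of embryonic stem cells that feeds the phosphoinositide 3-kinase pathway. Its body lies at chrX:7924276-7928607. Its window held 20 reads in MidK, 133 in LowK and 110 in MEF, which is 0.984, 4.50 and 1.25 per 10000 listed reads in that order of libraries. LowK stood above both other libraries. Relative to the median gene the ratio was 1.07 in MidK over MEF and 3.38 in LowK over MEF (interval 2.61 to 4.40). In LowK the level of Eras per kb lay at percentile 99.3 of the chromosome's genes. The gene body itself had 0 reads in MidK, a count that allows up to 3, and 37 in LowK and 33 in MEF.

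The LowK reads at Eras were uneven. A single 1 kb stretch at chrX:7922276-7923275, to the left of the body, had 2 reads in MidK, 49 in LowK and 11 in MEF, and made up 36.8% of the LowK reads of the window. Those 49 reads lay at 11 listed sites, and the stretch was picked because it held the most LowK reads of the window. Without the 1 kb that held the most reads, LowK over MEF was 1.26 on the log2 scale and still called, in an alternative added after the data were seen. This stretch falls within the body of Pcsk1n, a neighbour that encodes a secreted inhibitor of proprotein convertases. Of the reads of the Eras window, 80% in MidK, 86.5% in LowK and 77.3% in MEF also lay in the window of Pcsk1n, and 9, 77 and 41 reads lay in the Pcsk1n body itself. The window of Pcsk1n was called higher in LowK over MEF as well, by 3.06-fold. On the other side, the window of Hdac6, a cytoplasmic deacetylase gene, shared 40% of the Eras reads in MidK, 39.1% in LowK and 60.9% in MEF. The reads of Eras and of Pcsk1n cannot be told apart where the windows overlap.

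Dusp9 encodes a phosphatase that inactivates ERK and is among the X-linked genes linked to signalling differences between female and male mouse embryonic stem cells. Its body lies at chrX:73639389-73643514. The window held 44 reads in MidK, 94 in LowK and 122 in MEF, or 2.16, 3.18 and 1.38 per 10000 listed reads. Dusp9 is the member that stood above MEF in both day 20 libraries, by 2.12-fold in MidK (1.47 to 3.01) and by 2.16-fold in LowK (1.63 to 2.84). Per kb it lay at percentile 97.7 in MidK and 97.6 in LowK. The same 1 kb, chrX:73637389-73638388, held the most reads in both day 20 libraries, 12 in MidK and 17 in LowK, against 19 in MEF. With library totals in place of the median gene as the scale, Dusp9 was no longer called in MidK over MEF, with a log2 ratio of 0.65. Most of the Dusp9 reads lay in the flanks, with 9 in the body in MidK, 23 in LowK and 44 in MEF. With the gene body alone neither rise was called, at 0.35 on the log2 scale in MidK and 0.64 in LowK over MEF. The long noncoding genes Gm46680 and Gm52444 have windows that overlap it, and Gm46680 shared 61.4% of its reads in MidK, 67.0% in LowK and 58.2% in MEF. In LowK over MEF the window of Gm46680 was called higher, at 2.02, and that of Gm52444 was not called, at 1.67. Neither was called in MidK over MEF, at 1.90 and 0.995.

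Nr0b1 encodes DAX1, an orphan nuclear receptor without a classical DNA-binding domain that acts in the transcription network of mouse embryonic stem cells. Its body lies at chrX:86191775-86195947. It had 15 reads in MidK, 21 in LowK and 94 in MEF, or 0.738, 0.711 and 1.06 per 10000 listed reads. Neither ratio to MEF was called, at 0.937 in MidK and 0.625 in LowK (0.370 to 1.01). Of the MidK reads, 8 of 15 lay in the first 1 kb of the gene body, chrX:86191775-86192774, the fullest stretch in MidK. Of these 8 reads, 7 were at 1 site, X position 86192016, with 3 B6 and 4 variant reads. The same 1 kb had 4 reads in LowK and 6 in MEF. When sites with a reliability score of at least 20 alone were kept, LowK over MEF was called lower, at -1.73 on the log2 scale.

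Tfe3 encodes a basic helix-loop-helix leucine zipper factor that has to leave the nucleus when mouse embryonic stem cells exit pluripotency. Its body lies at chrX:7762530-7775202, 149 kb from that of Eras. The window held 22 reads in MidK, 124 in LowK and 160 in MEF, or 1.08, 4.20 and 1.81 per 10000 listed reads. Tfe3 rose in LowK by 2.17-fold over MEF (1.70 to 2.76), also called with the gene body alone at 1.41 on the log2 scale, and the ratio in MidK was 0.808. The LowK reads were spread over the body, which held 13 reads in MidK, 83 in LowK and 93 in MEF. The fullest 1 kb stretch held 13.7% of the LowK reads. A long noncoding gene on its right side, Gm39487, shared 59.1% of the reads in MidK, 62.1% in LowK and 59.4% in MEF. The window of Gm39487 had a ratio of 1.58 in LowK over MEF, not called.

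Zfx encodes a zinc finger activator needed for self-renewal of mouse embryonic and blood stem cells. Its body lies at chrX:94074631-94150645. The window held 116 reads in MidK, 216 in LowK and 597 in MEF, or 5.70, 7.32 and 6.76 per 10000 listed reads. Neither ratio was called, at 1.14 in MidK and 1.01 in LowK over MEF. Within the window, the stretch chrX:94107631-94108630 had 13 reads in MidK, 49 in LowK and 2 in MEF, 22.7% of the LowK reads of Zfx. It was singled out because it held the most LowK reads of the window. The long noncoding gene Gm46691 lies within the Zfx body, and its window shared 31.9% of the Zfx reads in MidK, 29.2% in LowK and 32.2% in MEF.

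Sox3 encodes a transcription factor of the SOXB1 family of early neural cells. Its single-exon body lies at chrX:60891366-60893430. The window held 6 reads in MidK, 76 in LowK and 86 in MEF, or 0.295, 2.57 and 0.974 per 10000 listed reads. Sox3 rose in LowK by 2.47-fold over MEF (1.79 to 3.41). In MidK the ratio to MEF was 0.410 (0.146 to 0.929), not called, and it was called lower with library totals as the scale, at -1.72 on the log2 scale. Of the 6 MidK reads, 5 were at 1 site, X position 60894246, with 3 B6 and 2 variant reads. The body held 0 reads in MidK, 4 in LowK and 6 in MEF, so the Sox3 values are those of its flanks. The long noncoding gene Gm38438 shared 83.3% of the reads in MidK, 85.5% in LowK and 88.4% in MEF. Its body held 42 of the 76 LowK reads. The window of Gm38438 had a ratio of 1.95 in LowK over MEF, not called.

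Klf8 encodes a Krüppel-like zinc finger factor, and its body at chrX:153225339-153398925 is the longest of the 8. The window held 227 reads in MidK, 384 in LowK and 1161 in MEF, or 11.2, 13.0 and 13.1 per 10000 listed reads. The ratios to MEF were 1.15 in MidK and 0.925 in LowK, neither called. A stretch at chrX:153290339-153291338 had 24 reads in MidK, 12 in LowK and 2 in MEF, and held 10.6% of the MidK reads of the window. The 24 MidK reads lay at 4 listed sites, and the stretch was picked because it held the most MidK reads. No other gene's window overlapped that of Klf8 or of Nr0b1.

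Nono encodes an RNA- and DNA-binding protein of paraspeckles that also binds chromatin in mouse embryonic stem cells. Its body lies at chrX:101429560-101448593. The window held 21 reads in MidK, 65 in LowK and 253 in MEF, or 1.03, 2.20 and 2.86 per 10000 listed reads. Nono fell in MidK, with a ratio of 0.488 to MEF (0.297 to 0.762), and the ratio in LowK was 0.719, not called. MEF was the highest of the 3 libraries in reads per 10000. The windows of Zmym3 and Itgb1bp2, a gene of striated muscle, overlap that of Nono on its left and right. Zmym3 shared 23.8% of the Nono reads in MidK and had a ratio of 1.65 in MidK over MEF, not called. Itgb1bp2 shared 0% of the Nono reads in MidK, 33.8% in LowK and 20.2% in MEF and had a ratio of 0.396, called lower. With the gene body alone Nono was at -0.79 on the log2 scale in MidK over MEF and not called.

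**Figure D2:**
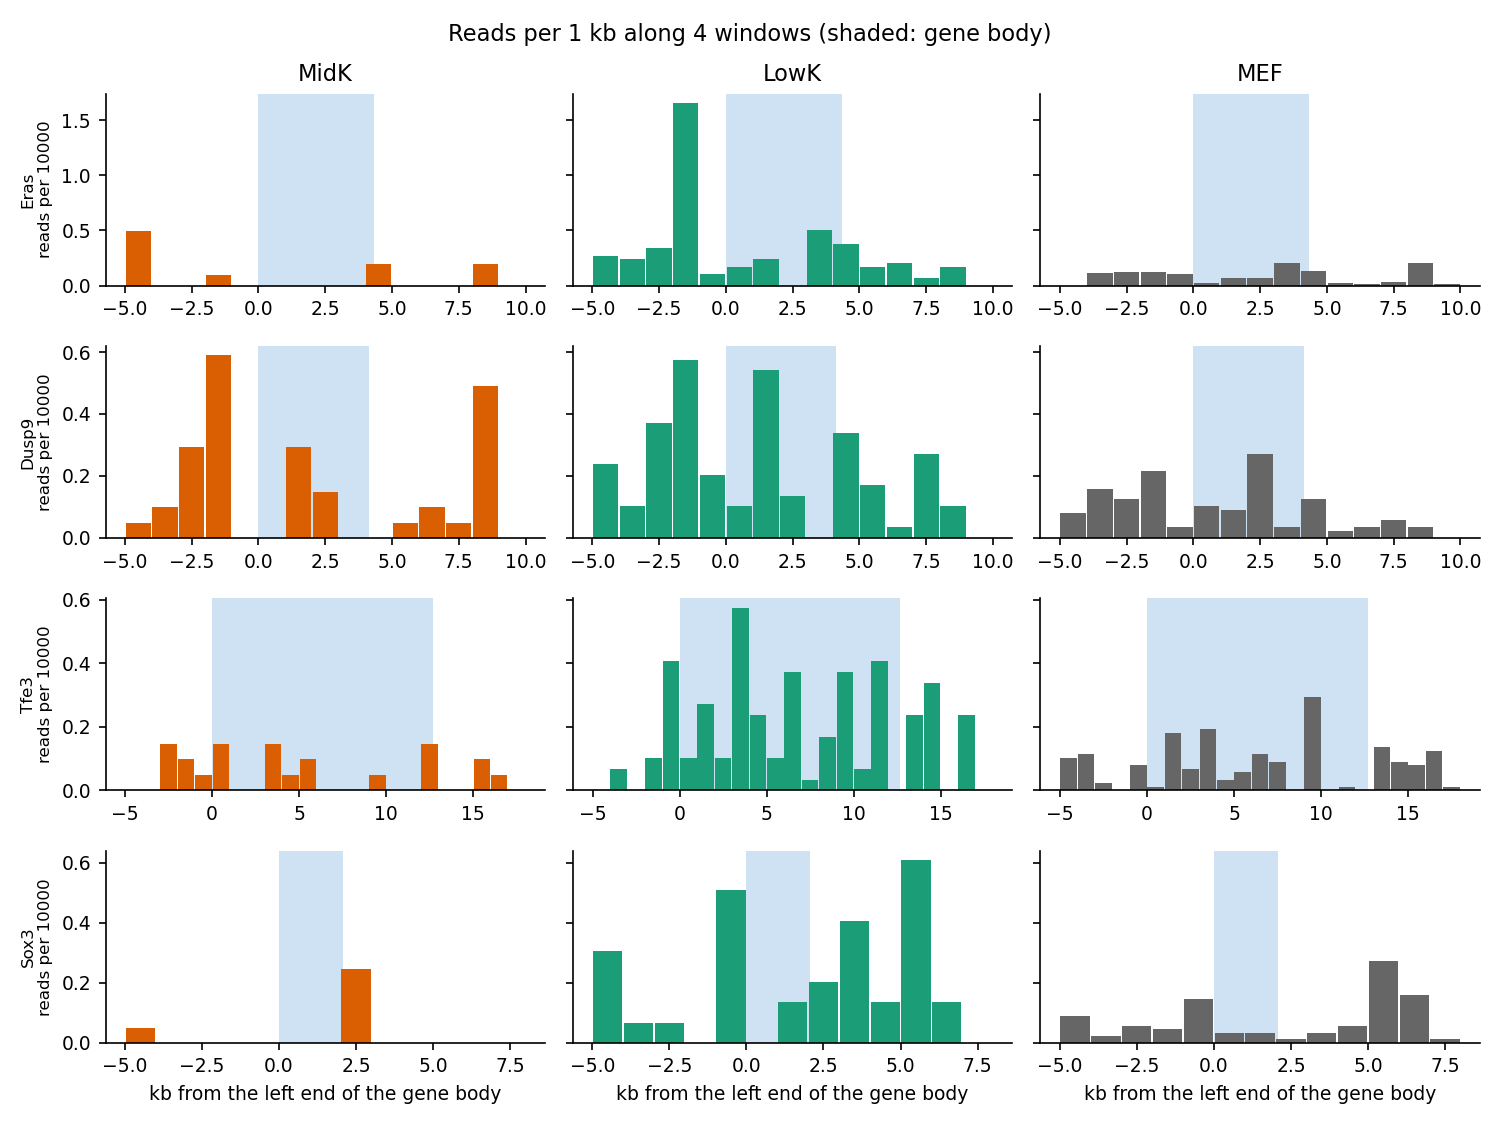
Reads per 1 kb per 10000 listed reads along the windows of Eras, Dusp9, Tfe3 and Sox3 (rows) in MidK, LowK and MEF (columns), plotted by distance in kb from the left end of the gene body, which is shaded. The Eras window in LowK has 1 tall bar left of the body with 49 reads, and the Sox3 window in MidK has reads in 2 of 13 bars.

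Per kb of window, the order of the genes differed between libraries. In MidK, Dusp9 was at 0.153 reads per kb per 10000 listed reads and apart from the next gene, Eras at 0.0686, after which came Zfx (0.0663), Klf8 (0.0608), Nr0b1 (0.0520), Tfe3 (0.0477), Nono (0.0356) and Sox3 (0.0245), neighbours whose intervals overlapped. In LowK, Eras was at 0.314, Dusp9 at 0.225, Sox3 at 0.213 and Tfe3 at 0.185. Their neighbours in that order overlapped, and Tfe3 was apart from Zfx (0.0851), which was followed by Nono (0.0758), Klf8 (0.0708) and Nr0b1 (0.0502) with overlapping intervals. In MEF the 8 genes lay close together, from 0.0987 at Nono to 0.0716 at Klf8, and all neighbours overlapped. A level between genes also depends on how many variant positions a window holds, which is the same for a given window in the 3 libraries as far as they share alleles.

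The second comparison set MidK against LowK and thus asked what differed with Shield1 at day 20. Sox3, Eras and Tfe3 fell in MidK relative to LowK, 3 of the 7 genes tested, with ratios of 0.169 (0.0600 to 0.385), 0.321 (0.190 to 0.517) and 0.379 (0.229 to 0.600). With flanks of 10 kb Tfe3 was no longer called, at -0.89 on the log2 scale, and with a reliability score of at least 20 Sox3 was not, at -1.52. Of all 905 genes tested 11.9% were called lower and 8.73% higher. Nr0b1 had too few reads to be tested. Dusp9 did not follow these 3 genes, with a ratio of 1.001, and Zfx had a ratio of 1.15, Klf8 of 1.26 (1.07 to 1.49) and Nono of 0.691. With library totals as the scale Nono was called lower too, at -1.09 on the log2 scale, which gave 0 higher and 4 lower of 7, where all genes split into 2.65% and 29.2%. LowK enters both this comparison and the one with MEF, so the values of these comparisons are not independent.

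The calls were then recomputed with 1 site per 300 bp. With all reads of these sites, Tfe3, Eras, Dusp9 and Sox3 were still called higher in LowK over MEF, at 1.33, 1.19, 1.11 and 1.09 on the log2 scale, where 3.51% of 941 genes were. In MidK over MEF, none of the 8 genes was called, with Dusp9 at 0.58 and Nono at -0.84, and 5.01% of all genes were called higher and 1.06% lower. In MidK over LowK, Tfe3 (-1.04), Eras (-1.07) and Sox3 (-1.50) kept their direction and a 2-fold size, but the Poisson intervals of MidK and LowK overlapped. None of the 7 was called, where 3.89% of 565 genes were called higher and 3.72% lower. When each of these sites was counted once whatever its reads, 4 of the 8 genes had enough sites to be called in LowK over MEF, namely Tfe3, Zfx, Nono and Klf8, and none of them was. Tfe3 was at 0.93. Eras (21 sites in LowK and 23 in MEF), Dusp9 (18 and 20) and Sox3 (14 and 17) were under the minimum of 30 and could not be called, with values of 0.76, 0.73 and 0.61. Of the 556 genes tested under that count, 0 were called higher and 0.18% lower. In MidK over MEF it called 0 of 555 genes, and in MidK over LowK 0 higher and 0.563% lower of 355.

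**Figure D3:**
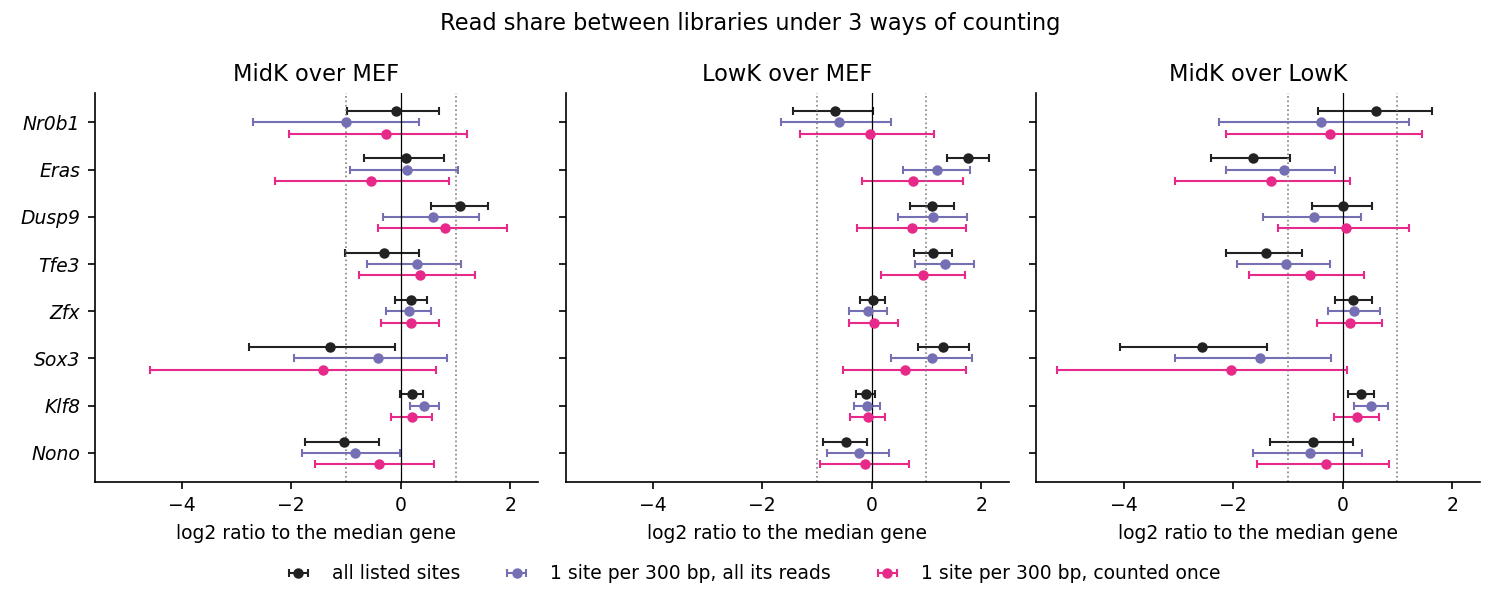
Log2 ratio of each of the 8 genes to the median gene in MidK over MEF, LowK over MEF and MidK over LowK, with exact 95% intervals, under 3 ways of counting. Dotted lines mark 2-fold. In LowK over MEF, Eras, Dusp9, Tfe3 and Sox3 lie right of the 2-fold line with all reads of all sites and of 1 site per 300 bp, and left of it when each site is counted once, where Eras, Dusp9 and Sox3 had too few sites to be called.

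Over the whole chromosome, the median ratio moved with body length in LowK over MEF and in MidK over LowK, and hardly in MidK over MEF. The genes that rose in LowK have short bodies: Eras, Dusp9 and Sox3 are under 5 kb and Tfe3 is 12.7 kb, whereas Zfx and Klf8, at 76.0 kb and 174 kb, were not called. Nr0b1, with a body of 4.17 kb, had the lowest log2 ratio of the 8 genes in LowK over MEF, -0.68, and Nono, at 19.0 kb, was at -0.48, neither called. Of all genes with bodies under 5 kb, 15.3% were called higher in LowK over MEF, compared with 7.87% of those of 5 to 20 kb and 1.36% of those of 20 kb or more. Called lower in LowK over MEF were 8.84%, 8.16% and 3.17% of these classes, so calls in both directions were more frequent at short bodies. The median log2 ratio in these classes was 0.2, 0.14 and -0.16. In MidK over LowK the medians were -0.52, -0.22 and 0.21, and 26.1%, 16.6% and 3.18% were called lower and 10.2%, 7.96% and 8.64% higher. In MidK over MEF the medians were close together, at -0.05, -0.08 and 0.02. There 15.3%, 8.16% and 6.56% were called higher and 13.3%, 14.9% and 3.62% lower. The length classes were chosen after the data were seen, and the part of length in the ratios of the 8 genes was not tested.

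**Figure D4:**
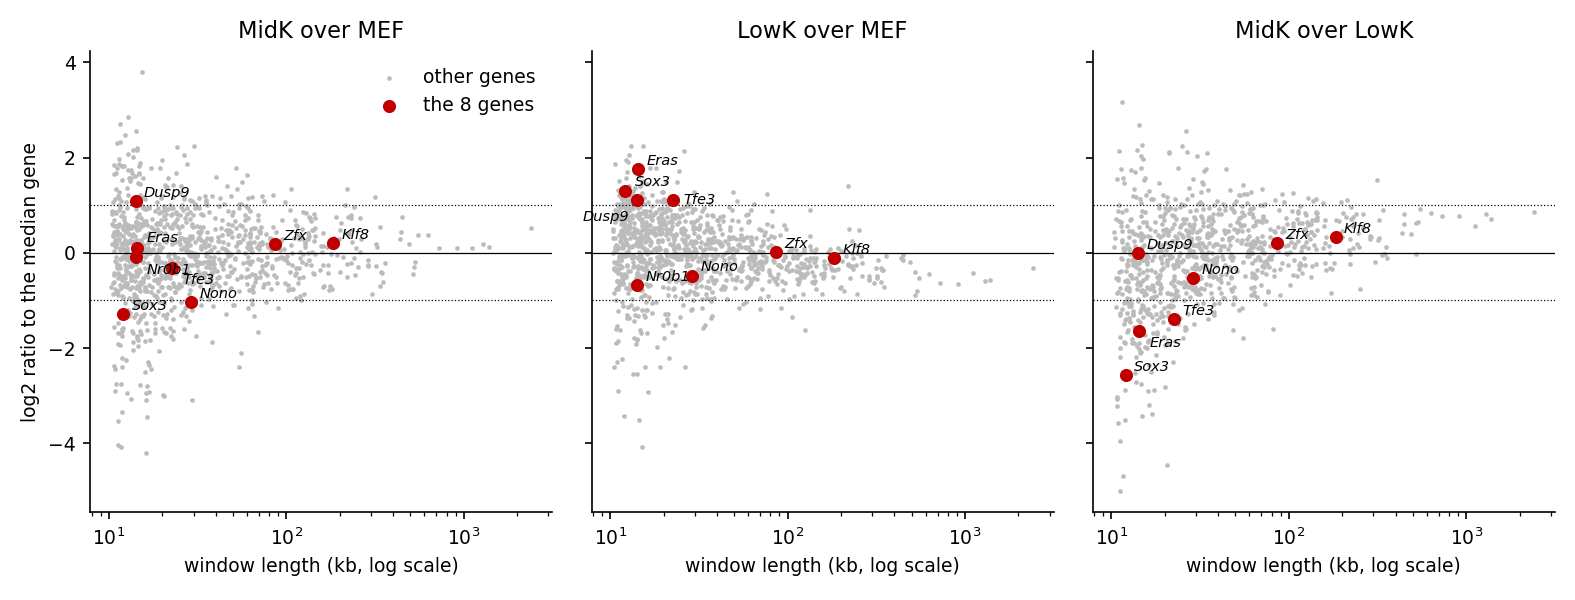
Log2 ratio to the median gene against window length (kb, log scale) for all genes tested in MidK over MEF, LowK over MEF and MidK over LowK, with the 8 genes in red and other genes in grey. Dotted lines mark 2-fold. The spread is widest at short windows, and in MidK over LowK the medians run between -0.52 for bodies under 5 kb and 0.21 for bodies of 20 kb or more.

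The 100 kb on both sides of each window, chosen after the data were seen, show how far a ratio extended. Around Sox3 the ratio was 1.26 in MidK over MEF and 1.05 in LowK over MEF (0.941 to 1.18), against 0.410 and 2.47 at the gene. Around Eras it was 1.27 and 1.43, against 1.07 and 3.38 at the gene, and around Dusp9 1.24 and 1.49, against 2.12 and 2.16. Around Tfe3 it was 0.999 in MidK and 1.78 in LowK, against 0.808 and 2.17 at the gene. Around Nono it was 1.77 in MidK and 1.33 in LowK, on the other side of the median gene from Nono itself. The surroundings of Tfe3 and of Eras overlap in part, since their bodies are 149 kb apart.

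The genes most like each called gene were taken as the 2 protein-coding genes nearest to it in the plane of the 2 log2 ratios to MEF, over 3 libraries and 811 to 813 candidates. Those nearest to Eras were Praf2 and Magix, at distances of 0.0749 and 0.251 on the log2 scale. Both lie to the left of Tfe3 and Eras, at chrX:7728571-7731063 and chrX:7673166-7681251. Dusp9 was nearest to Gm52448 (0.0137) and Rhox5 (0.126), and Tfe3 to Gpr50 (0.143) and Ubqln2 (0.146). Sox3 had no close neighbour: Ssr4 and Idh3g were nearest, at 0.435 and 0.465. Nono was nearest to Gm35586 (0.0680) and Vmn2r121 (0.102). These nearest genes had few reads in MidK, from 7 at Idh3g to 29 at Vmn2r121, so the distances carry counting error, which was not computed. The windows of Ssr4 and Idh3g overlap and share reads.

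Of the other X-linked genes of pluripotent cells 16 were listed, with Kdm6a and Ogt among them. In LowK over MEF 3 were called higher and 0 lower, namely the homeobox genes Rhox5 (2.02-fold) and Rhox6 (2.32) and Trap1a (2.10), a gene of mouse placenta and tumours. In MidK over MEF 2 were higher, Rhox5 (2.25) and Trap1a (4.49), and 0 lower. In MidK over LowK 2 were higher, Trap1a (2.18) and Klhl13 (2.05), a ubiquitin ligase adaptor, and 0 lower. Of all genes, 7.23% were called higher and 6.3% lower in LowK over MEF, and 9.45% and 9.82% in MidK over MEF. In MidK over LowK these shares were 8.73% and 11.9%. Their median log2 ratios were 0.21 in MidK over MEF, 0.37 in LowK over MEF and 0.10 in MidK over LowK, beside 0, 0.56 and -0.53 for the 8 genes and -0.01, -0.01 and 0 for all genes. With 1 site per 300 bp, 15 of the 16 had enough reads in MidK over MEF, 15 in LowK over MEF and 10 in MidK over LowK, and none of these was called. Under that count 5.01% of all genes were called higher and 1.06% lower in MidK over MEF. The shares were 3.51% and 1.49% in LowK over MEF and 3.89% and 3.72% in MidK over LowK. Rhox5, and Trap1a in MidK over LowK, were among those with too few reads. Reads of Rhox genes can come from other copies of that family, so their values are uncertain.

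Of 18 other X-linked transcription factor genes, Cited1, a transcriptional coactivator, was called higher in both day 20 libraries, by 3.14-fold in MidK and by 2.66-fold in LowK over MEF. Both calls were kept with 1 site per 300 bp, where 5.01% of all genes were called higher in MidK over MEF and 3.51% in LowK over MEF. Of the other calls named for this list, that of Zfp711 in MidK over LowK was kept, and the others ended or had too few reads. Taf1 (2.33) and Zfp711 (2.02) were also higher in MidK over MEF and Zbtb33 (0.412) was lower, and Pou3f4 (2.65) was also higher in LowK over MEF. In MidK over LowK 3 were called higher, Zfp711 (3.37), Nkrf (2.59) and Taf1 (2.17), and 4 lower, among them Pou3f4 (0.238), Zbtb33 (0.311) and Foxp3 at the limit of 2-fold. Of all genes, 8.73% were called higher and 11.9% lower in MidK over LowK. Against MEF the shares were 9.45% and 9.82% in MidK and 7.23% and 6.3% in LowK. Median log2 ratios of the 18 genes were 0.49 in MidK over MEF, 0.26 in LowK over MEF and 0.18 in MidK over LowK.

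Fibroblast marker genes on chromosome X, 9 in number, moved as follows beside these genes. In MidK over MEF 3 were called lower and 0 higher, against 9.82% and 9.45% of all genes. Those called were Tmsb4x (thymosin) at 0.143, Itm2a at 0.0544 and Srpx at 0.448, where MidK had 2 reads at Tmsb4x and 1 at Itm2a. Among those not called, Timp1 (1.55) and Col4a5 (1.33) were above the median gene. Plp2 (0.608), Gpc3 (0.652), Bgn (0.739) and Col4a6 (0.825) were below it. In LowK over MEF 1 was called higher, Plp2 (2.32), and 1 lower, Itm2a (0.311), against 7.23% and 6.3% of all genes. In MidK over LowK 2 of 8 tested were called lower, Plp2 (0.267) and Tmsb4x (0.110), against 11.9% of all genes. Median log2 ratios of the markers tested were -0.62 in MidK over MEF, -0.25 in LowK over MEF and -0.33 in MidK over LowK. With 1 site per 300 bp, Itm2a in MidK over MEF and Plp2 in LowK over MEF were still called. Under that count 1.06% of all genes were called lower in MidK over MEF and 3.51% higher in LowK over MEF. Srpx (-0.72 on the log2 scale) and Tmsb4x (-2.08) in MidK over MEF, Itm2a (-0.96) in LowK over MEF and Plp2 (-1.39) in MidK over LowK were not, and Tmsb4x in MidK over LowK had too few reads. With flanks of 10 kb, Itm2a was at -0.25 in MidK over MEF and not called. Reads of LSD1 chromatin are no check of the cell type, and the part of cell composition in the ratios of the 8 genes was not tested.

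The third comparison concerned the alleles. Over all listed sites of the 8 genes, the variant base made up 83.0% of reads in MidK, 88.9% in LowK and 85.6% in MEF, beside 81.1%, 90.2% and 85.8% over the whole lists. A site is listed when a variant read was seen, which pushes these shares up, and 85.0% of the sites in MidK, 88.6% in LowK and 80.5% in MEF had variant reads alone. Restricted to sites where both alleles had 2 reads or more, variant bases made up 47 of 100 reads at 17 sites in MidK (47.0%, Clopper-Pearson interval 36.9% to 57.2%). In LowK it made up 61 of 136 reads at 23 sites (44.9%, 36.3% to 53.6%), and in MEF 227 of 465 reads at 90 sites (48.8%, 44.2% to 53.5%). The 3 intervals overlapped. With 1 site per 300 bp the share was 43.5% at 9 sites in MidK (31.0% to 56.7%) and 45.7% at 12 sites in LowK (33.7% to 58.1%). In MEF it was 47.3% at 36 sites (40.0% to 54.7%). Requiring 2 reads of each allele at such low depth keeps these shares near 50%, and 6 of the 17 sites in MidK, 10 of the 23 in LowK and 39 of the 90 in MEF were ties. The measure is therefore drawn towards 50% in each library, and a share near 50% does not show that allele reads were even over all sites. The whole lists stood at 44.6%, 48.2% and 49.5% by this measure.

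**Figure D5:**
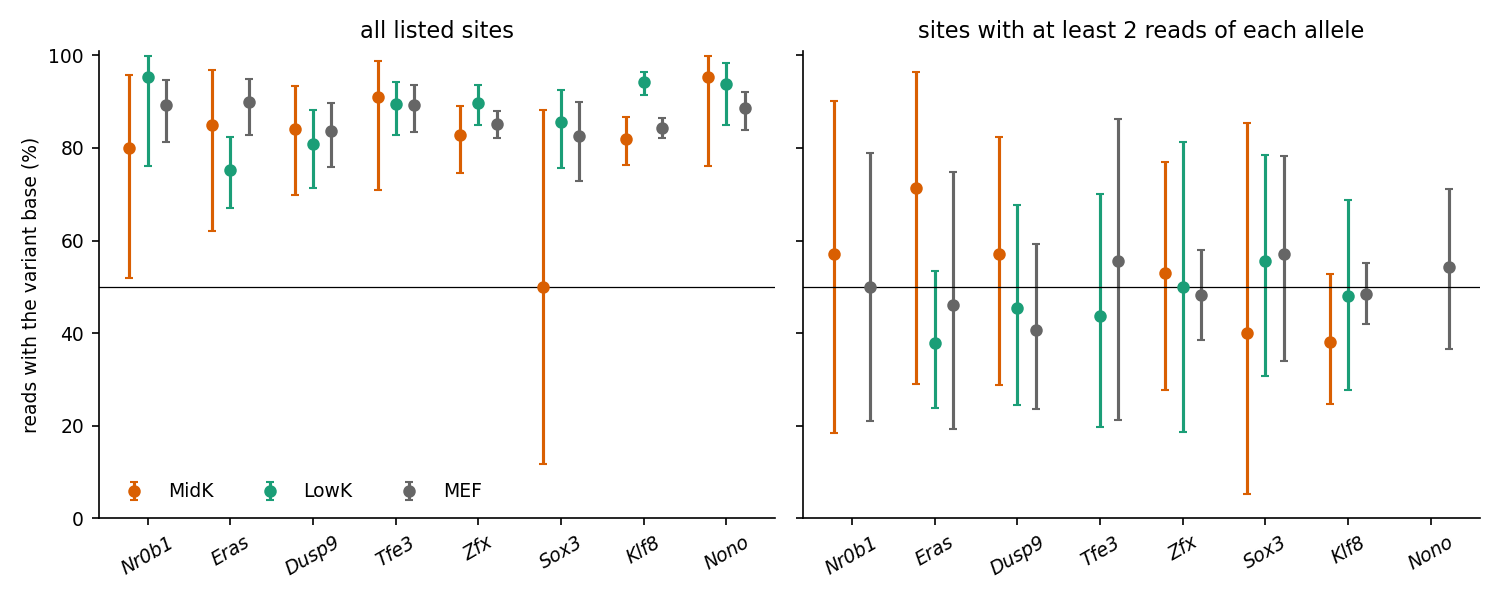
Percent of reads with the variant base at each of the 8 genes in MidK, LowK and MEF with exact 95% Clopper-Pearson intervals, over all listed sites (left) and over sites where both alleles had 2 reads or more (right). A missing point is a gene with no such site. On the left, Klf8 stands at 81.9% in MidK, 94.3% in LowK and 84.4% in MEF, with the LowK interval apart from the others.

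Intervals of single genes lay apart at Klf8 and Eras. Klf8 had 81.9% variant reads in MidK (76.3% to 86.7%), 94.3% in LowK (91.5% to 96.4%) and 84.4% in MEF, with the LowK interval above those of both other libraries. With 1 site per 300 bp, Klf8 was at 77.5% in MidK (70.0% to 83.9%), 91.7% in LowK (86.8% to 95.2%) and 86.3% in MEF (83.0% to 89.2%), so that the difference of LowK from MidK stood and the one from MEF did not. Eras went the other way, with 75.2% in LowK (67.0% to 82.3%) below 90.0% in MEF (82.8% to 94.9%), but at 1 site per 300 bp the shares were 80.4% and 84.0% and their intervals overlapped. Among all genes, intervals lay apart with LowK above MEF in 21.8% of 884 and with LowK below MEF in 1.92%, where the 8 genes gave 1 of 7 each. MidK lay below LowK in 27.4% of 544 genes and above it in 0.551%, with 1 and 0 of the 3 testable genes of the set. Against MEF, MidK lay above in 5.13% and below in 18.1% of 565 genes, with 0 and 0 of 3 in the set. With 1 site per 300 bp, all genes stood at 14.5% above and 0.539% below for LowK over MEF (0 and 0 of 7 in the set), at 0% and 18.3% for MidK over LowK (0 and 1 of 2), and at 1.57% and 6.92% for MidK over MEF (0 and 0 of 2).

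At sites with both alleles, Eras in LowK had 28 B6 and 17 variant reads at 7 sites (37.8%, 23.8% to 53.5%), and the B6 base had the majority at all 5 that were not tied. Klf8 in MidK had 31 B6 and 19 variant reads at 7 sites (38.0%, 24.7% to 52.8%), again with a B6 majority at all 5 that were not tied. Sites close together can be covered by the same reads, so these sites and reads are not independent counts. In MEF, Klf8 was even, with 121 B6 and 114 variant reads at 46 sites, and so was Zfx, with 56 and 52 at 22 sites. In the whole lists, variant majorities made up 23.3% of untied sites in MidK, 43.5% in LowK and 48.0% in MEF.

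The libraries shared few positions in these windows. Of 1812 listed positions, 1570 were in 1 library, 230 in 2 and 12 in all 3. MidK and MEF shared 70 positions (94 and 179 reads), LowK and MEF shared 150 (291 and 391 reads), and MidK and LowK shared 46 (99 and 102 reads). Of the 242 positions in at least 2 libraries, 165 had variant reads alone wherever listed, and 12 had B6 reads in every library that listed them. None had different variant bases in 2 libraries. Some positions changed between variant reads alone and reads of both alleles. Dusp9 position 73637371 had 2 B6 and 2 variant reads in MidK, 3 variant reads in LowK and 7 variant reads in MEF. Sox3 position 60891057 had 5 variant reads in LowK and 3 B6 and 2 variant reads in MEF, and was not listed in MidK. Zfx position 94122966, by contrast, had variant reads alone in each library, 4 in MidK, 1 in LowK and 5 in MEF, and so did Eras position 7923079 in the stretch with most LowK reads, with 2, 4 and 2.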

How the data were processed

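Per the submitters' processing notes, LSD1 ChIP-seq reads of 3 mouse samples were mapped by BWA on mm10, and variants were called with bcftools mpileup, per the series' design text. The sources used here name no versions, no filters and no step on duplicates. Per the file headers, the deposited values are counts of reads with the B6 and the variant base at each listed position of chromosome X. The deposited reliability score, whose column carries another header in the MidK file, was used in 1 alternative.

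Single-base sites were kept, which left out 5.56% of entries in MidK, 6.13% in LowK and 6.97% in MEF. Gene positions came from RefSeq GRCm38.p6, and the B6 base matched the RefSeq promoter at 2444 of 2444 entries. The total listed reads of each library was the first scale. Ratios were then divided by the median over genes reaching 30 reads in 1 of both libraries, which moved log2 ratios by 0.44 for MidK over MEF, -0.10 for LowK over MEF and 0.56 for MidK over LowK. Python 3.11.15, numpy 2.4.6, pandas 2.3.3 and scipy 1.17.1 were used. The calling code was run on simulated Poisson counts, drawn independently for each gene with planted changes. Those counts leave out that 1 read can be counted at several sites, so that run says nothing about calls that arise in this way. The genes and lists were chosen with earlier results of these data known. Named were the 8 genes, genes with overlapping windows, the 2 most like genes of each called gene, called genes of the lists except for a result not reported here, and sites with the most reads. Alternatives changed the scale, window, site thinning, read minimum, fold, reliability and deep sites. Leaving out the densest 1 kb, the surroundings and the length classes were added after seeing the data.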

Additional observations from a re-analysis of the deposited data

Results flagged for a closer look

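Insertions and deletions were listed apart from the single-base sites and entered no ratio above. In the Tfe3 window, LowK had 17 reads at 7 such entries, or 0.576 per 10000 listed reads, against 7 reads at 3 entries and 0.0793 per 10000 in MEF. In the Sox3 window, MidK had 7 reads at 2 entries (0.344 per 10000) and LowK had 11 reads at 4 entries (0.373 per 10000), against 5 reads at 2 entries and 0.0566 per 10000 in MEF. The values were picked out from all genes of the set because the exact Poisson intervals of these day 20 libraries lay above that of MEF. Elsewhere in the set the intervals of the day 20 libraries overlapped that of MEF. No share of all genes is given for insertions and deletions, so these values have no background to be set against. They are per 10000 listed reads and were not set relative to the median gene. The cause was not tested.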

How the results depend on the processing

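Of the settings that gave a value for a called gene, 12 of 22 in MidK over MEF, 35 of 44 in LowK over MEF and 23 of 31 in MidK over LowK kept the call, the others missed the threshold or the minimum of reads, and none turned the direction. The number of called genes was 2 in MidK over MEF and became 0 with 1 site per 300 bp (all reads, or each site counted once), 0 with the gene body alone, 1 with flanks of 10 kb and 0 without the densest 1 kb, a setting added after the data were seen. It was 4 in LowK over MEF and became 0 with each site counted once, 2 with the gene body alone and 2 with flanks of 10 kb (Tfe3 and Eras in both), 3 without the deepest 1% of sites (Dusp9 at 0.97) and 5 with a reliability of at least 20. It was 3 in MidK over LowK and became 0 with 1 site per 300 bp, in both ways of counting, 2 with the gene body alone, 2 with flanks of 10 kb (Tfe3 at -0.89), 2 with a reliability of at least 20 (Sox3 at -1.52) and 4 with library totals. With each site counted once, Dusp9, Eras and Sox3 were under the minimum of 30 and could not be called, so those counts of 0 say little about them. The same holds for Sox3 with the gene body alone. For the other settings the cause was not tested. Beside the main setting, shares of all genes called are given here for library totals and the 1 site per 300 bp counts alone. The counts under the other settings therefore have no background to be set against. Among other genes, Rhox5 in LowK over MEF reversed to -0.01 on the log2 scale with the gene body alone, and Trap1a in MidK over LowK to -0.65 with each site counted once. Variant shares at sites with both alleles moved to 83.0% in MidK, 88.9% in LowK and 85.6% in MEF with all listed sites, and to 59.2% in LowK and 60.3% in MEF with at least 1 read of each allele. Sites listed in all 3 libraries left no gene of the set with enough reads, so this setting gave no value. No paired analysis was possible because each group holds 1 library. Low depth limits single sites most: 69.7% of listed sites in MidK, 67.7% in LowK and 47.4% in MEF had 1 read.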
